A study of Rattus norvegicus with 4 samples.

Results

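The nuclear-encoded subunits of the respiratory chain and of ATP synthase were examined on arrays of rat oligodendrocyte precursor cells (OPCs) after silencing of the receptor gene Gpr17. Genes were taken by symbol, namely those with a matched non-control probe whose name starts with Ndufa, Ndufb, Ndufc, Ndufs, Ndufv, Uqcr, Cox4, Cox5, Cox6, Cox7, Cox8 or Atp5, or is Sdha, Sdhb, Sdhc, Sdhd, Cyc1 or Cycs. This gave 89 of the 16568 genes that had a symbol and a value on all arrays. They were 33 genes of complex I, 4 of complex II, 9 of complex III, cytochrome c itself, 19 of complex IV and 16 of complex V, with 7 assembly factors of complex I that share the prefix Ndufa. The prefixes also took in Ndufa10l1, named as a gene like Ndufa10, and Cox6c-ps1, a transcribed pseudogene of Cox6c. A gene with several matched probes is represented by the brightest of them. Only probes whose transcript was found in the RefSeq table were matched to a gene, so the 89 are not a full list of the subunits, and Ndufa3, Ndufa8 and Ndufs6, for example, are not among them.

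The cells came from pooled cortices of postnatal day 2 Sprague-Dawley pups and were expanded for 3 days with bFGF and PDGF. In differentiating medium with the thyroid hormone T3 they were transfected, with Lipofectamine RNAiMAX, with 50 nM of siRNA against Gpr17 (siGPR17) or of a non-targeting RNA (siNEG). RNA was taken 48 h later, at day 2 of differentiation, and the data are 4 single-colour Agilent arrays with 1 sample on each, 2 of siNEG and 2 of siGPR17 OPCs. Nothing in the labels says whether replicates were separate cultures, so p-values measure the spread between these samples, which may be technical. The 4 arrays shared 1 slide and 1 scan, the siNEG arrays in a column of the slide of their own and the siGPR17 arrays in another, and effects of the column cannot be told apart from those of the siRNA.

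The respiratory chain passes electrons from NADH (complex I) and succinate (complex II) through coenzyme Q to complex III, and from there through cytochrome c to complex IV, where oxygen is reduced. Complexes I, III and IV pump protons, and ATP synthase (complex V) uses the gradient to make ATP. Most subunits are encoded in the nucleus and imported, a few core subunits are encoded in mitochondrial DNA, and oligodendrocytes are known to rely on this chain while they differentiate and to draw more on glycolysis once myelin is formed.

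Gpr17, the target of the siRNA, had a normalized intensity of 1107 and 1113 on the siNEG arrays and of 652 and 639 on the siGPR17 arrays. The groups did not overlap, and Gpr17 was lower after its own siRNA, as labelled. The log2 fold change was -0.78 (SE 0.085, adjusted p = 0.210 from limma), which was not past the adjusted p of 0.07 that was used together with a fold change of 1.5. The adjusted p from limma was 0.0235 with normexp background correction and 0.0147 once limma's trend and robust option was used, with a range over all alternatives from 0.0147 to 0.663.

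The cells carried the markers of their lineage. All 6 precursor genes and all 6 genes of mature oligodendrocytes were well above background on every array. The summed intensity of the precursor genes was 211065 and 251345 on the siNEG arrays and 205082 and 207273 on the siGPR17 arrays, with Olig2 the brightest. For the mature genes, with Mbp the brightest, the sums were 285629 and 321056 in siNEG and 336985 and 350850 in siGPR17 OPCs. The siGPR17 arrays thus lay below both siNEG arrays for the first sum and above both for the second. Most of the second sum was Mbp, with 197112 and 227781 in siNEG and 256521 and 272867 in siGPR17 OPCs. The median log2 fold change of the 6 mature genes was -0.23. Without overlap between the groups, 0 precursor genes were higher and 4 lower in siGPR17 OPCs, and 2 mature genes were higher and 4 lower, where 28% of all tested genes were higher and 25.2% lower in this way. The widest such log2 fold changes were -0.48 (SE 0.096) for Cspg4 and -0.24 (SE 0.18) for Olig2, and -0.67 (SE 0.12) for Mog and 0.32 (SE 0.12) for Mbp. With siNEG replicate 2 left out that of Olig2 was -0.01, and with siNEG replicate 1 left out it was -0.46.

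Markers of other cell types were measured as well, and their counts stand beside the same shares of all tested genes, 28% and 25.2%. For 7 astrocyte genes, of which Slc1a3 was the brightest, the sums were 9840.2 and 10729.8 in siNEG and 9413 and 9401 in siGPR17 OPCs, with 4 genes lower without overlap, among them Aqp4 at -1.35 (SE 0.15) and Gfap at -0.61 (SE 0.13), and 1 higher, S100b at 0.50 (SE 0.10), named after its value was seen. In all 3 of the 7 were above 0, Gja1 and Aldh1l1 with overlap. Gja1 had 22.3 and 36.1 in siNEG and 39.5 and 32.2 in siGPR17 OPCs, with siNEG replicate 2 between the siGPR17 arrays. Aldh1l1 had 42.3 and 42.6 in siNEG and 41.3 and 63.4 in siGPR17 OPCs, and only siGPR17 replicate 2 was above the siNEG arrays. For 7 neuron genes, with Map2 the brightest, the sums were 7233 and 8652 in siNEG and 7059 and 6815 in siGPR17 OPCs, with 0 higher and 4 lower, among them Snap25 at -0.35 (SE 0.09) and Nefl at -0.28 (SE 0.10). Of 7 microglia genes 6 were tested and Csf1r stayed near background throughout, and the sums, led by Cx3cr1, were 3752 and 2528 in siNEG and 2522 and 2992 in siGPR17 OPCs. The microglial sum was thus highest on siNEG replicate 1, with 0 genes higher and 2 lower without overlap, Aif1 at -0.56 (SE 0.12) and P2ry12 at -0.32 (SE 0.10). With normexp Aif1 was at -0.11 and Aqp4 at -0.84, and among the dim genes of the other lists Nefl was at -0.07 and Tek at 0.21. Of 6 endothelial genes 3 were tested, all higher without overlap, led by Kdr at 0.68 (SE 0.11) and Tek at 0.51 (SE 0.13), with sums of 305 and 336 in siNEG and 479 and 487 in siGPR17 OPCs, while Pecam1 and Cldn5 were at background on each array. Flt1, with 24.3 and 10.1 in siNEG and 18.1 and 11.2 in siGPR17 OPCs, was well above background on 1 siNEG array only and was not tested. Of 6 fibroblast and mural genes 3 were tested, with Col1a2 the brightest and Acta2 at 0.27 (SE 0.12) the 1 higher without overlap, with sums of 439.7 and 334 in siNEG and 455 and 450.4 in siGPR17 OPCs, while Pdgfrb, Dcn and Lum were at background on each array. Without siNEG replicate 2 Acta2 was at 0.15. Of the markers named, limma put 0 past the thresholds, while Mog and Aqp4 passed with normexp and with trend and robust options, and Gfap and Kdr with the latter. The part of these cells in the respiratory chain values was not tested. In such bulk samples, fewer cells of a type and less RNA per cell cannot be told apart.

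Nearly all respiratory chain transcripts were measurable. Of the 89 genes, 87 were well above background on all 4 arrays and 88 could be tested, that is, were well above it on at least 2. Ndufa4l2 was well above background on 1 of the 2 siNEG arrays and on both siGPR17 arrays. Cox8c, an isoform of complex IV known from testis, was at background on each array and was not tested.

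No respiratory chain gene passed a fold change of 1.5 together with an adjusted p under 0.07 in limma (0 of 88, adjusted p from 0.234 to 0.992), where 0 of the 11656 tested genes passed, a share of 0%. Without adjustment, 3 of the 88 had a p under 0.05 in limma and a higher intensity in siGPR17 OPCs, against 7.41% of all tested genes, and 0 had one and a lower intensity, against 8.71% of all tested genes. With the trend and robust option 0 of the 88 passed and 7 had an unadjusted p under 0.05, while 184 of all tested genes passed and 20.8% had such a p. With normexp 0 passed and 9 had an unadjusted p under 0.05, while 111 of all tested genes passed and 19.5% had such a p. By the methods' t-test 0 of the 88 and 0 of all tested genes passed, and 13 of the 88 had an unadjusted p under 0.05, against 14.4% of all tested genes. None of the 88 reached a fold of 1.5 in either direction, against 5.08% of all tested genes that did. An exact permutation test over 2 against 2 arrays cannot give a two-sided p under 0.333, so none is given.

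Small differences pointed mostly one way. The log2 fold change was above 0 for 68 of the 88 genes, against 52% of all tested genes, and it lay between -0.20 and 0.20 for 77 of them. The median was 0.07 over the respiratory chain genes, a ratio of 1.05, and 0.01 over all tested genes. On both siGPR17 arrays 34 of the 88 were above both siNEG arrays, against 28% of all tested genes, and 2 were below both, against 25.2%. The remaining 52 overlapped between the groups. The largest differences were 0.49 for Cox6a2 and -0.21 for Atp5if1.

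Under the percentile scaling the siNEG arrays differed from each other more than the groups did. Relative to each gene's mean over the 4 arrays, the median of the 88 genes was -0.10 on siNEG replicate 1, 0.04 on siNEG replicate 2, 0.05 on siGPR17 replicate 1 and 0.01 on siGPR17 replicate 2. SiNEG replicate 1 was thus low, and siNEG replicate 2 lay between the siGPR17 arrays. The summed intensity of the 88 genes showed the same spread, with 4215810.0 and 4785240.0 on the siNEG arrays and 4663120.0 and 4578110.0 on the siGPR17 arrays, which both lay between the siNEG values. SiNEG replicate 2 was above replicate 1 for 77 of the 88 genes, by a median of 0.13 on the log2 scale, against 62.3% of all tested genes and a median of 0.06 over them. For 58 of the 88 the gap between the siNEG arrays was wider than the difference between the groups. This order of the medians held with normexp and with median scaling and reversed with spike-in scaling and quantile normalization. With spike-in scaling the median gap between the siNEG arrays was -0.02 and the median difference between the groups 0.20, and the gap was the wider for 17 of the 88. With quantile normalization these medians were 0.02 and 0.03, and the gap was the wider for 50 of the 88.

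Under the percentile scaling the sign of the median depended on which siNEG array was used. Without siNEG replicate 1 the median was -0.01, with 41 of the 88 genes above 0, a share of 46.6% that was the same among all tested genes, over which it was -0.02. Then 36 of the 88 were higher and 38 lower without overlap, against 38.9% and 45.8% of all tested genes. Without siNEG replicate 2 the median was 0.13, with 82 genes above 0 against 57% of all tested genes, over which it was 0.04. Here 76 of the 88 were higher and 2 lower without overlap, against 47.8% and 34.6% of all tested genes. Without siGPR17 replicate 1 the median was 0.04, and 36 genes were higher and 9 lower without overlap, against 36.6% and 34.3% of all tested genes. Without siGPR17 replicate 2 it was 0.09, and 48 genes were higher and 3 lower without overlap, against 36.2% and 32.3% of all tested genes. With a single array in a group, no overlap is more frequent among all genes than with all 4 arrays. The scaling moved these counts too. Under quantile normalization 51 of the 88 were above 0, against 51% of all tested genes, with 27 higher and 14 lower without overlap, against 28.8% and 28.2%, and the median was 0.02 above that of all tested genes. The medians of complexes I to V were then 0.01, 0.06, 0.05, 0.06 and 0.004. Scaling on spike-in RNA moved every gene by the same amount, which put the median of all tested genes at 0.14 and 84 of the 88 genes above 0, against 73.1% of all tested genes. The median of the respiratory chain genes relative to that of all genes, 0.06, is by construction the same as under the percentile scaling. A sign that turns under spike-in scaling reflects this common shift.

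**Figure D1:**
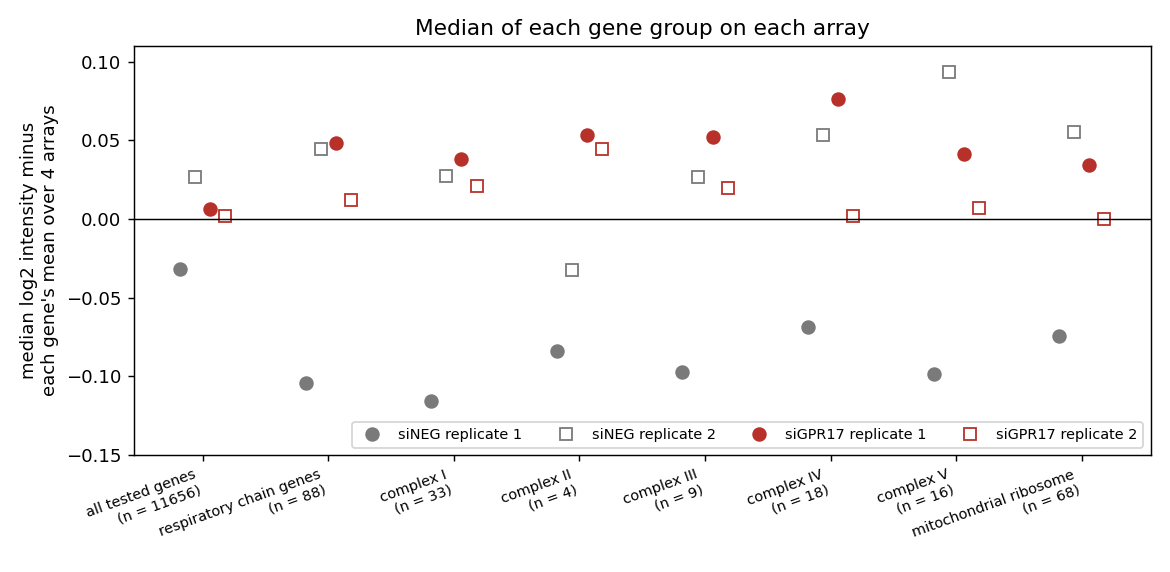
Median log2 intensity of each gene group on each array, after subtracting each gene's mean over the 4 arrays (vertical axis, log2 units, percentile scaling), with grey for siNEG, red for siGPR17, filled circles for replicate 1 and open squares for replicate 2. For the 88 respiratory chain genes siNEG replicate 1 lies at -0.10 and the other arrays between 0.01 and 0.05, while with spike-in scaling both siNEG arrays were at -0.09 and -0.10 and both siGPR17 arrays at 0.09 and 0.10.

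Complex I, the NADH dehydrogenase, is the largest complex of the chain. All of its 33 genes were tested, 24 had a log2 fold change above 0 (52% of all tested genes did), 14 were higher and 1 lower without overlap (28% and 25.2% of all tested genes), and the median was 0.05, which without siNEG replicate 1 was -0.01 and without siNEG replicate 2 was 0.14. Ndufv3, an accessory subunit of the NADH-binding module, had intensities of 5278 and 5776 in siNEG and of 7089 and 7252 in siGPR17 OPCs. The groups were far apart, siGPR17 above siNEG, with a log2 fold change of 0.38 (SE 0.096, adjusted p = 0.234 from limma). This was the lowest p of the 88 genes, and with an array left out the change lay between 0.31 and 0.44.

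A dimmer probe of Ndufv3, for another of its transcripts, gave a log2 fold change of 0.02 (SE 0.094), on intensities of 2628 and 2819 in siNEG and of 2702 and 2817 in siGPR17 OPCs. The transcripts of Ndufv3 are known to be spliced into a short and a long form of the subunit, and the probes of the gene did not give the same difference. Which form each probe reads was not tested.

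Ndufa10l1 had intensities of 22644 and 22125 in siNEG and of 27068 and 27402 in siGPR17 OPCs. The groups did not overlap, with a log2 fold change of 0.28 (SE 0.085, adjusted p = 0.261 from limma), and its dimmer probe gave 0.33. For Ndufa10, the accessory subunit after which it is named, the intensities were 228 and 237 in siNEG and 211 and 209 in siGPR17 OPCs. The groups were apart, siGPR17 below siNEG, with a log2 fold change of -0.15 (SE 0.086), which shrank to -0.01 under spike-in scaling. Its probe was designed on a predicted transcript.

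The 7 nuclear-encoded core subunits, which carry the flavin and the iron-sulfur clusters, had a median log2 fold change of 0.11. Of these, 4 were higher and 0 lower without overlap, against 28% and 25.2% of all tested genes, and 6 were above 0. Ndufs1, the largest subunit of the NADH-oxidising arm, had intensities of 6433 and 6569.8 in siNEG and of 7329.6 and 7471 in siGPR17 OPCs. The groups did not overlap, with a log2 fold change of 0.19 (SE 0.085, adjusted p = 0.359 from limma). Ndufs8, which holds a pair of iron-sulfur clusters on the path to coenzyme Q, had 4947 and 5208 in siNEG and 5566 and 5986 in siGPR17 OPCs. The difference was 0.19 on the log2 scale (SE 0.095), again without overlap, and Ndufs3, a subunit of the coenzyme Q-binding module that was singled out after its value was seen, gave 0.16 (SE 0.092) without overlap.

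Accessory subunits of complex I ranged more widely around 0. Ndufb5, a membrane-arm subunit singled out after its value was seen, had intensities of 30658 and 32379 in siNEG and of 34943 and 36034 in siGPR17 OPCs, with no overlap and a log2 fold change of 0.17 (SE 0.09). At the other end, Ndufa1, a small membrane-arm subunit also chosen after its value was seen, had 48089.6 and 58671 in siNEG and 50163 and 45668 in siGPR17 OPCs. Its groups overlapped because siNEG replicate 1 lay between the siGPR17 arrays, and its log2 fold change was -0.15 (SE 0.14), with -0.01 without siNEG replicate 2 and -0.29 without siNEG replicate 1. Of the 7 assembly factors with the prefix Ndufa, which are not part of the finished complex, 3 were higher and 0 lower without overlap, against 28% and 25.2% of all tested genes, with a median of 0.05. In all 7 siNEG replicate 2 was above siNEG replicate 1, by a median of 0.10, wider than that difference between the groups. Ndufaf5, which hydroxylates an arginine of a core subunit during assembly, had 5641 and 5700.2 in siNEG and 6578 and 6472 in siGPR17 OPCs. That is a log2 fold change of 0.20 (SE 0.085) without overlap, while Ndufaf7, a methyltransferase that modifies another core subunit, gave 0.12 (SE 0.092) without overlap, and 0.07 without siNEG replicate 1. Lowest of these 7 was Ndufaf3 at -0.09 (SE 0.10), chosen after its value was seen, with overlapping arrays and a sign that turned under spike-in scaling, and it was -0.03 with siNEG replicate 2 left out and -0.15 with siNEG replicate 1 left out.

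**Figure D2:**
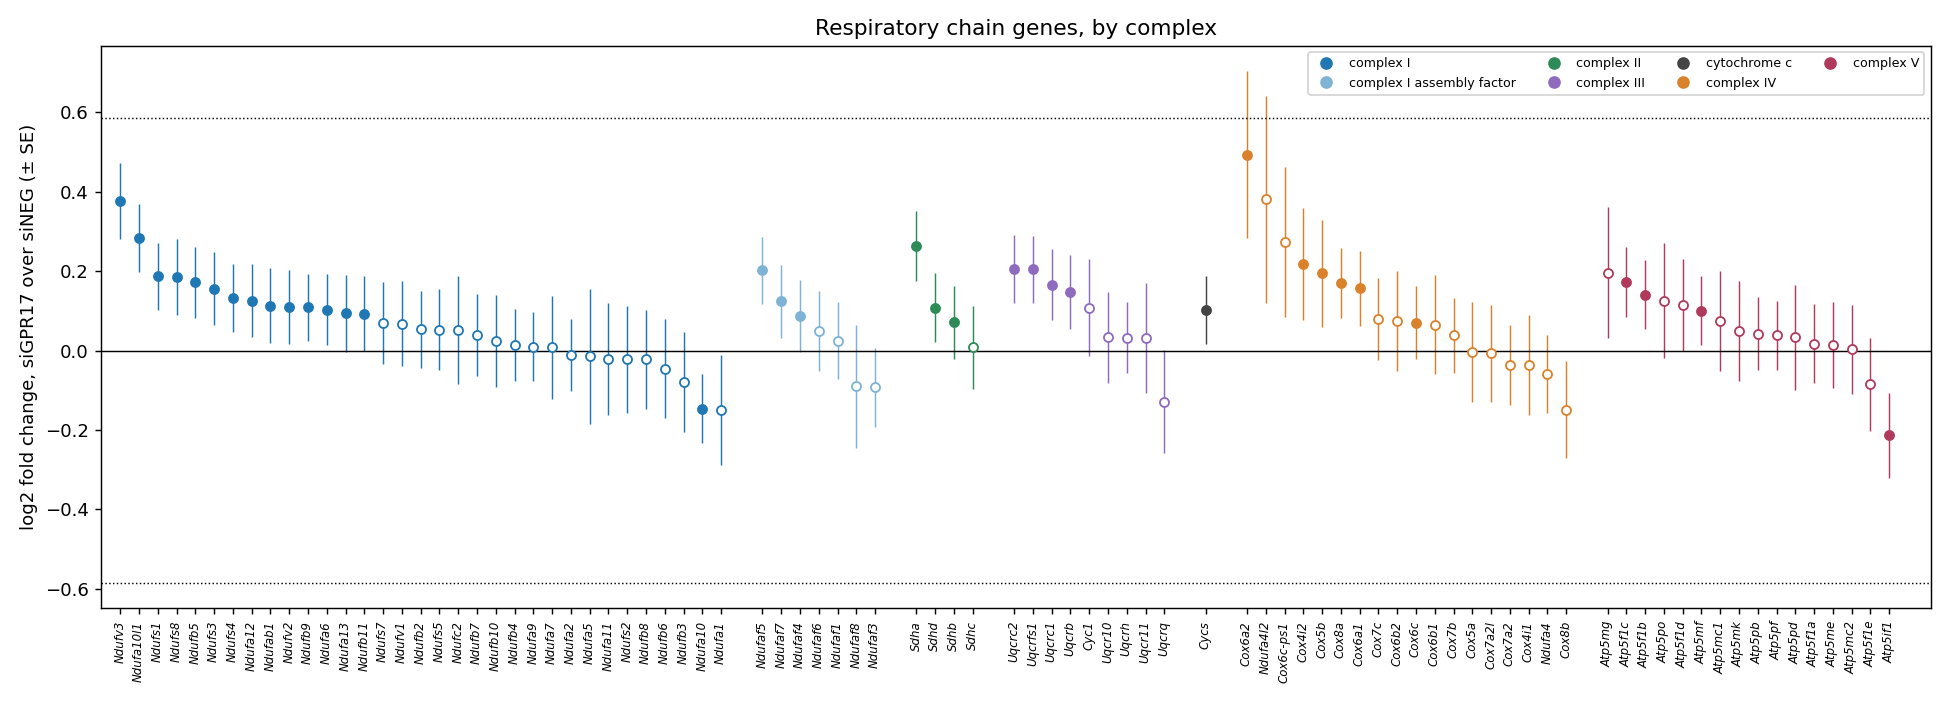
Log2 fold change of siGPR17 over siNEG for the 88 tested genes, grouped by complex and ordered by size, with bars for ± SE from limma, filled points where the arrays of the groups do not overlap and open points where they do. The dotted lines mark a fold change of 1.5 in either direction, and every point lies between them, from -0.21 for Atp5if1 to 0.49 for Cox6a2.

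Complex II, succinate dehydrogenase, is the complex that the chain shares with the Krebs cycle, and all of its subunits are nuclear-encoded. Its 4 genes had log2 fold changes above 0, as did 52% of all tested genes, 3 of them without overlap, against 28%, and the median was 0.09. Sdha, the flavoprotein that oxidises succinate, had intensities of 9901 and 9690.3 in siNEG and of 11502.8 and 12024 in siGPR17 OPCs. SiGPR17 values were above siNEG values by more than the replicates differed, with a log2 fold change of 0.26 (SE 0.088, adjusted p = 0.279 from limma). Sdhd, a membrane anchor that binds heme and coenzyme Q, had 25496 and 24538 in siNEG and 26942 and 26972 in siGPR17 OPCs, a log2 difference of 0.11 (SE 0.086). Sdhb, the iron-sulfur subunit, had 17266 and 18576 in siNEG and 18829 and 18801 in siGPR17 OPCs, a log2 difference of 0.07 (SE 0.092). In both the groups did not overlap, although the upper siNEG value of Sdhb came close to the siGPR17 arrays, and its difference was 0.02 with siNEG replicate 1 left out, 0.12 with siNEG replicate 2 left out and 0.03 with quantile normalization. The median of complex II was 0.06 with quantile normalization, and leaving out 1 array gave 0.08 to 0.10.

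Complex III, the cytochrome bc1 complex, takes electrons from coenzyme Q. All of its 9 genes were tested, 8 were above 0 (52% of all tested genes), 4 were higher and 0 lower without overlap (28% and 25.2%), and the median was 0.11, with -0.01 when siNEG replicate 1 was left out and 0.18 when siNEG replicate 2 was. The large core proteins and the iron-sulfur protein had the widest differences. Uqcrc2, a core protein that faces the matrix, had intensities of 14955 and 15489 in siNEG and of 17620.6 and 17499 in siGPR17 OPCs. The log2 fold change was 0.21 (SE 0.086, adjusted p = 0.333 from limma), and the groups did not overlap.

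Uqcrfs1, the Rieske iron-sulfur protein that hands electrons to cytochrome c1, had intensities of 18226 and 17969 in siNEG and of 20665 and 21054 in siGPR17 OPCs. The groups were again apart, with a log2 fold change of 0.20 (SE 0.085, adjusted p = 0.332 from limma). Uqcrc1, the partner of Uqcrc2, had 10758 and 10932 in siNEG and 11812 and 12537 in siGPR17 OPCs, a log2 difference of 0.17 (SE 0.09) without overlap. Among the small subunits, both singled out after their values were seen, Uqcrb gave 0.15 (SE 0.094) without overlap and 0.09 without siGPR17 replicate 1, and Uqcrq gave -0.13 (SE 0.13), with overlapping arrays and a sign that turned under spike-in scaling and without siNEG replicate 2. Cycs, the cytochrome c that shuttles electrons from complex III to complex IV, had 38936 and 39686 in siNEG and 42891 and 41544.5 in siGPR17 OPCs. Its groups did not overlap, with a log2 fold change of 0.10 (SE 0.086) that was 0.05 with quantile normalization, and its dimmer probe gave 0.29 (SE 0.12).

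Complex IV, cytochrome c oxidase, is known for subunits with isoforms in different tissues. Of its 19 genes 18 were tested, 12 were above 0 (52% of all tested genes), 6 were higher and 0 lower without overlap (28% and 25.2%), and the median was 0.07, with 0.01 without siGPR17 replicate 1 and 0.13 without siGPR17 replicate 2. Cox5b, a subunit that binds zinc on the matrix side, had intensities of 97985 and 120987 in siNEG and of 125368 and 123840.0 in siGPR17 OPCs. There was no overlap, but the siNEG arrays were far apart, and the log2 fold change was 0.19 (SE 0.14), which was 0.35 without siNEG replicate 2 but only 0.04 when siNEG replicate 1 was left out and 0.12 with quantile normalization. Its dimmer probe gave 0.08 (SE 0.16), with overlapping arrays.

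The general isoform Cox4i1 had intensities of 109058 and 131236 in siNEG and of 114480.0 and 118864 in siGPR17 OPCs. Both siGPR17 arrays lay between the siNEG arrays, and the log2 fold change of -0.04 (SE 0.13) turned positive under spike-in scaling and without siNEG replicate 2, when it was 0.10, and was -0.11 with quantile normalization. Cox4i2, the isoform known from lung and from cells at low oxygen, had 444 and 358 in siNEG and 481 and 447 in siGPR17 OPCs. The siGPR17 arrays lay above both siNEG arrays, although siGPR17 replicate 2 exceeded siNEG replicate 1 only slightly, and the log2 fold change was 0.22 (SE 0.14, adjusted p = 0.480 from limma). Without siNEG replicate 2 it was 0.06, and without siNEG replicate 1 it was 0.37.

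Cox6a1, the general isoform of its subunit, had intensities of 209249 and 228949 in siNEG and of 243678 and 244258 in siGPR17 OPCs, without overlap, a log2 fold change of 0.16 (SE 0.095), which was 0.09 without siNEG replicate 1 and 0.08 with quantile normalization. Cox6a2, the isoform of heart and skeletal muscle, was near the limit of detection, with 27.5 and 18.8 in siNEG and 30.8 and 33.3 in siGPR17 OPCs. Its groups did not overlap and its log2 fold change of 0.49 (SE 0.21, adjusted p = 0.339 from limma) was the widest of the 88 genes, but it was 0.22 with normexp, 0.22 without siNEG replicate 2 and 0.76 without siNEG replicate 1, and a dimmer probe of the gene gave -0.15 (SE 0.19).

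Cox6b1 and Cox6b2, the general isoform and one known from testis, gave 0.07 (SE 0.13) and 0.08 (SE 0.13), with overlapping arrays and signs that turned without siNEG replicate 1, and for Cox6b2 also without siGPR17 replicate 1. With normexp Cox6b2 was at 0.03. The intensities of Cox6b1 were 620 and 739 in siNEG and 729 and 687 in siGPR17 OPCs. Those of Cox6b2 were higher, 4039 and 4718 in siNEG and 4848 and 4365 in siGPR17 OPCs. How well the Cox6b1 probe reads the general isoform was not tested. Cox7a2, the general isoform of its subunit, gave -0.04 (SE 0.10), and Cox7a2l, a related protein that joins complexes III and IV into supercomplexes, gave -0.01 (SE 0.12). Both overlapped, and both turned positive under spike-in scaling and without siNEG replicate 2, while with quantile normalization they were -0.08 and -0.05. Cox8a, the general isoform, had intensities of 122638 and 116614 in siNEG and of 135091 and 134214 in siGPR17 OPCs, without overlap, a log2 fold change of 0.17 (SE 0.088), which was 0.09 with quantile normalization. The muscle isoform Cox8b was dim, with 18.5 and 21.1 in siNEG and 16.8 and 18.8 in siGPR17 OPCs, and its log2 fold change of -0.15 (SE 0.12), with overlapping arrays, turned positive with normexp and was -0.05 with siNEG replicate 2 left out and -0.24 with siNEG replicate 1 left out.

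Ndufa4, named as a subunit of complex I and known since to belong to complex IV, had intensities of 56132 and 57920.3 in siNEG and of 57348 and 52237 in siGPR17 OPCs. The groups overlapped, and the log2 fold change of -0.06 (SE 0.097) turned positive under spike-in scaling and without siGPR17 replicate 2, and was -0.13 with quantile normalization. Its paralog Ndufa4l2, induced at low oxygen, was barely above background, with 13.2 and 19.9 in siNEG and 24.3 and 18.3 in siGPR17 OPCs. The groups overlapped, and the log2 fold change of 0.38 (SE 0.26, adjusted p = 0.503 from limma) was 0.09 with normexp, 0.09 without siNEG replicate 1 and 0.68 without siNEG replicate 2. No probe was matched to Cox7a1.

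**Figure D3:**
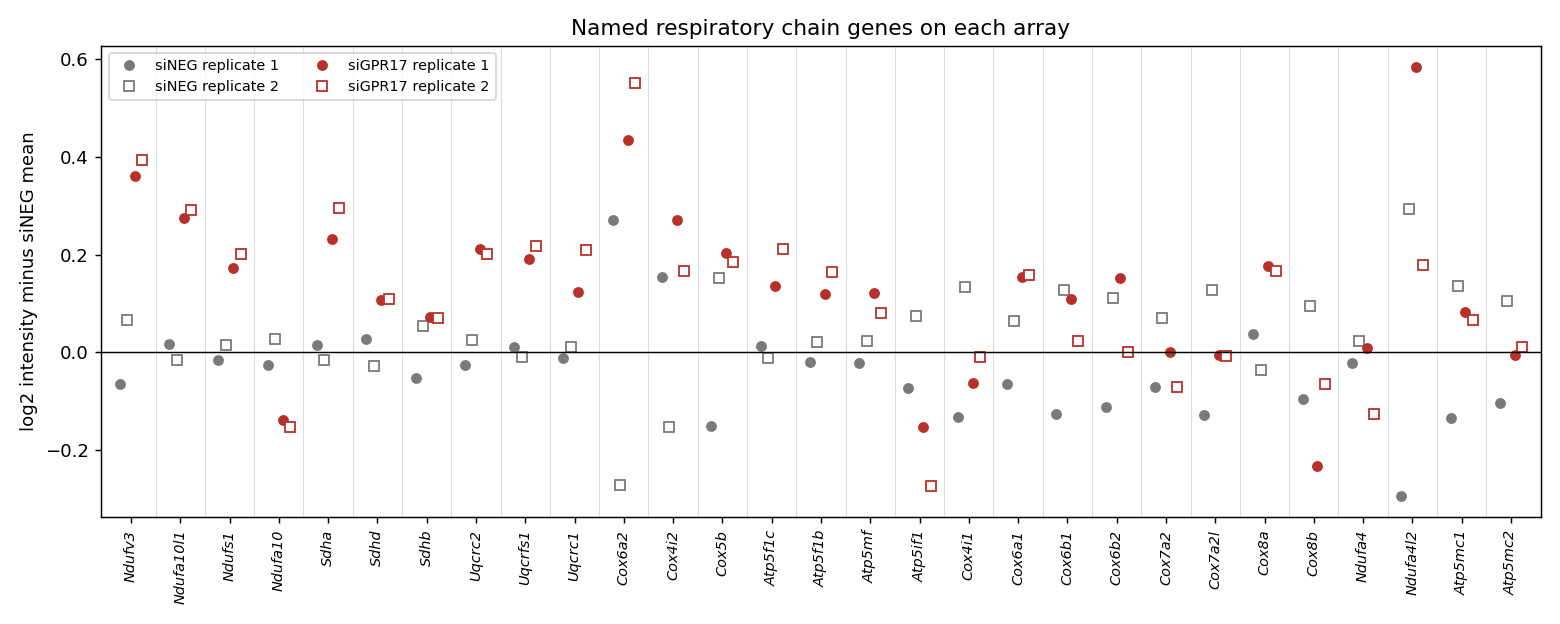
Log2 intensity on each array minus the mean of the siNEG arrays (vertical axis, log2 units) for the respiratory chain genes with the largest differences without overlap in each complex and for the isoform families, with grey for siNEG, red for siGPR17, filled circles for replicate 1 and open squares for replicate 2. Replicates lie close together for Ndufa10l1 and Sdha and far apart for Cox6a2 and Ndufa4l2.

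Complex V, the ATP synthase, had the smallest share of genes without overlap among the complexes. All of its 16 genes were tested, 14 were above 0 (52% of all tested genes), 3 were higher and 1 lower without overlap (28% and 25.2%), and the median was 0.05, with -0.05 without siNEG replicate 1 and 0.14 without siNEG replicate 2. SiNEG replicate 2 was above siNEG replicate 1 for 15 of the 16, by a median of 0.20 on the log2 scale, which under this percentile scaling was wider than the median difference between the groups in any complex. Atp5f1c, the gamma subunit that turns in the catalytic head, had intensities of 18789 and 18468 in siNEG and of 20466 and 21557 in siGPR17 OPCs. The groups did not overlap, with a log2 fold change of 0.17 (SE 0.088, adjusted p = 0.396 from limma).

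Atp5f1b, the catalytic beta subunit, had intensities of 13246 and 13634 in siNEG and of 14587 and 15053 in siGPR17 OPCs, a log2 difference of 0.14 (SE 0.087) without overlap. Atp5mf, a small subunit of the membrane part, had 28838 and 29748 in siNEG and 31843.5 and 30978.6 in siGPR17 OPCs, a log2 difference of 0.10 (SE 0.087) without overlap, which was 0.05 with quantile normalization. The paralogs Atp5mc1 and Atp5mc2, which encode the same c subunit of the rotating ring with different import signals, gave 0.07 (SE 0.13) and 0.003 (SE 0.11). Their arrays overlapped, their signs turned without siNEG replicate 1, and that of Atp5mc2 also turned under quantile normalization and without siGPR17 replicate 2. Atp5mc1 was at 0.03 with quantile normalization. The dimmer probes of Atp5mc2 gave 0.15 (SE 0.12) and 0.14 (SE 0.088) without overlap and 0.06 (SE 0.12) with overlap. No probe was matched to Atp5mc3.

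Atp5if1 encodes the inhibitor that blocks ATP hydrolysis when the synthase would run backwards. Its intensities were 20926 and 23189 in siNEG and 19797 and 18222 in siGPR17 OPCs. Both siGPR17 arrays lay below both siNEG arrays, with a log2 fold change of -0.21 (SE 0.11, adjusted p = 0.389 from limma), the lowest of the 88 genes. The sign held under each scaling, with -0.08 under spike-in scaling, and with an array left out the change lay between -0.29 and -0.14.

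Several genes had more than one probe, and these did not always give the same sign. Of 24 genes with several tested probes, 8 had probes on both sides of 0, namely Cox5a, Cox6a2, Cox6c, Cox7a2, Ndufab1, Uqcr10, Uqcrb and Uqcrq. Cox5a, Cox6c, Ndufab1 and Uqcr10 are named here after their values were seen. For Ndufab1, the acyl carrier protein of mitochondria, the bright probe gave a log2 fold change of 0.11 (SE 0.095) and the dim probe -0.27 (SE 0.09). The value of the bright probe was 0.05 with siNEG replicate 1 left out and 0.17 with siNEG replicate 2 left out, and the mean of the probes gave -0.08. Using the mean of all tested probes of a gene, 28 genes were higher and 3 lower without overlap, against 28.6% and 24.8% of all tested genes, and the median was 0.07.

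The promoters of respiratory chain genes are known for sites of the transcription factors NRF-1 and GABP, and they were searched because a shared sequence is a property that the choice by symbol did not use. A RefSeq promoter of the rat assembly GRCr8, from 250 bases before to 50 after the start, was matched for 77 of the 89 genes. The letters GCGCATGC of the NRF-1 motif or their reverse complement GCATGCGC were found in 12 of the 77 (15.6%), against 2.66% of all 27457 promoters. The letters CCGGAAG of the GABP motif or their reverse complement CTTCCGG were found in 23 of the 77 (29.9%), against 9.22% of all promoters, and both motifs in 4 (5.19%), against 0.524%. Neither motif contains the other, and a match is a description of the sequence and not of a bound site. The 27457 promoters include those of genes not tested on these arrays, and the share among tested genes was not computed.

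The median log2 fold change was 0.10 for 11 tested genes with the NRF-1 letters and 0.05 for 65 without them. For the GABP letters it was 0.04 for 23 tested genes with them and 0.07 for 53 without. These medians use all arrays under the percentile scaling, where the median gap between the siNEG arrays over the 88 genes, 0.13, was wider than each of them. Without siNEG replicate 1 the median of all 88 genes was -0.01. Such letters are held by genes without overlap, such as Ndufaf5, Sdhd, Ndufs1 and Cox8a, and by genes with overlapping arrays, such as Cox4i1, Uqcrq and Atp5mc2. The promoters printed here are examples from genes without overlap, each higher in siGPR17 OPCs. A link of the letters to the change was not tested. The letters are shown in capitals (RefSeq, GRCr8, read 5′ to 3′ along the strand of the gene).
Sdhb, chr5:158547684-158547983, plus strand: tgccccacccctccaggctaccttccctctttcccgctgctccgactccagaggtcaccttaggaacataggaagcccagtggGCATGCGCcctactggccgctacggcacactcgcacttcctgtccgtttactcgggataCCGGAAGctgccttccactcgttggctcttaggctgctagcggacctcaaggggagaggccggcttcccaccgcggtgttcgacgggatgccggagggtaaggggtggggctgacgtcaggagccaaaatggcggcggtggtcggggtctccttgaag
Uqcrc1, chr8:118467973-118468272, plus strand: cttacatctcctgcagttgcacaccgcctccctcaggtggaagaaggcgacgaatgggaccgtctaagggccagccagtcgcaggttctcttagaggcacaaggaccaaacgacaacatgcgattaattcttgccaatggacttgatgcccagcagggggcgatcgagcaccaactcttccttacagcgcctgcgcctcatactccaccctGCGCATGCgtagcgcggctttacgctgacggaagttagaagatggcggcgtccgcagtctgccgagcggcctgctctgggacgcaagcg
Uqcrc2, chr1:184598990-184599289, plus strand: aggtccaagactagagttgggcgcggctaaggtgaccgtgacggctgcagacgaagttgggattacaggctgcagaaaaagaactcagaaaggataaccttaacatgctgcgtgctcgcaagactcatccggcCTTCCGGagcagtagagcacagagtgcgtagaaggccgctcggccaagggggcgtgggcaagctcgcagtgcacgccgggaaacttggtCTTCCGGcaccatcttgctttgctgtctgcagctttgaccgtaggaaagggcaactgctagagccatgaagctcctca
Cycs, chr4:80984718-80985017, minus strand: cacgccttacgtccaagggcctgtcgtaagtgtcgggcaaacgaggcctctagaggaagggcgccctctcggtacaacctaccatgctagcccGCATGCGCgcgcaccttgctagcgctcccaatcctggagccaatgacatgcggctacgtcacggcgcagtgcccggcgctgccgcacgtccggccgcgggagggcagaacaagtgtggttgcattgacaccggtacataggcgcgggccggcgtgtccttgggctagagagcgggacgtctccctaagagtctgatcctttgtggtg
In Sdhb the first run of capitals is the NRF-1 motif and the second the GABP motif, in Uqcrc1 and Cycs the capitals are the NRF-1 motif, and in Uqcrc2 both runs are the GABP motif.

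The genes that drive the building of mitochondria were measured as well. Of 14 regulators of mitochondrial biogenesis, all tested, 4 were higher and 3 lower without overlap, against 28% and 25.2% of all tested genes, with a median log2 fold change of 0.04. Between the siNEG arrays the median gap was wider, 0.09, with replicate 2 above replicate 1 for 11 of the 14. In limma 0 were past the thresholds. Of all tested genes 7.41% had an unadjusted p under 0.05 and were higher, and 8.71% had one and were lower. Of the 14 regulators 1 gene had one. This was Polrmt, the RNA polymerase of mitochondria, with intensities of 2734 and 2939.7 in siNEG and of 3353 and 3599 in siGPR17 OPCs. Its groups did not overlap, with a log2 fold change of 0.29 (SE 0.098, adjusted p = 0.280 from limma). The largest rise of the list was that of Ppargc1a, 0.38 with overlapping arrays, named after its value was seen. Nrf1, which encodes NRF-1, and Gabpa, of GABP, were singled out after their values were seen. Nrf1 gave -0.20 (SE 0.11) without overlap, with -0.11 when siNEG replicate 2 was left out and 0.11 for the mean of its tested probes. Gabpa gave 0.03 (SE 0.089) with overlap, with -0.01 when siGPR17 replicate 1 was left out and 0.07 when siGPR17 replicate 2 was.

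Assembly of the complexes needs further proteins that are not part of them. Of 13 tested genes of complex I assembly, among them the Ndufaf genes, 3 were higher and 2 lower without overlap, against 28% and 25.2% of all tested genes, with a median of 0.02. The siNEG arrays differed by more, a median of 0.16, with replicate 2 above replicate 1 for 12 of the 13. Limma put 0 past the thresholds and 0 under an unadjusted p of 0.05, against 7.41% of all tested genes under it and higher and 8.71% under it and lower. Dmac1, an assembly factor of the membrane arm of complex I, gave a log2 fold change of -0.19 (SE 0.12) without overlap, which was -0.09 with siNEG replicate 2 left out and -0.30 with siNEG replicate 1 left out. For complexes II, III and V, 3 of 11 tested assembly genes were higher and 2 lower without overlap, against 28% and 25.2% of all tested genes, with a median of 0.01. Here the siNEG arrays differed by a median of 0.14, replicate 2 being the higher for 8 of the 11. Limma put 0 past the thresholds and 1, Lyrm7, under an unadjusted p of 0.05, against 7.41% of all tested genes under it and higher and 8.71% under it and lower. Lyrm7, the chaperone that holds the Rieske protein before its insertion into complex III, had intensities of 548 and 485 in siNEG and of 715 and 754 in siGPR17 OPCs. No siGPR17 value reached down to a siNEG value, with a log2 fold change of 0.51 (SE 0.11, adjusted p = 0.214 from limma). Bcs1l, the translocase that inserts the same protein, gave 0.18 (SE 0.088) without overlap. The client of both, Uqcrfs1, had given 0.20.

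For complex IV assembly and copper delivery, 10 of 16 tested genes were higher and 3 lower without overlap, against 28% and 25.2% of all tested genes, with a median of 0.13. The median gap between the siNEG arrays was narrower, 0.04, with replicate 2 above replicate 1 for 12 of the 16. From limma 0 were past the thresholds and 0 had an unadjusted p under 0.05, against 7.41% of all tested genes that had one and were higher and 8.71% that had one and were lower. Coa7, a factor of complex IV assembly, had intensities of 1635 and 1673 in siNEG and of 2000.04 and 1905 in siGPR17 OPCs. The groups did not overlap, with a log2 fold change of 0.24 (SE 0.088, adjusted p = 0.303 from limma). Cox20, a chaperone of the mitochondrially encoded subunit that binds copper, had 61.9 and 72.0 in siNEG and 48.4 and 61.5 in siGPR17 OPCs, a log2 difference of -0.29 (SE 0.17), and the groups were separated only narrowly. It was -0.12 without siGPR17 replicate 1, -0.46 without siGPR17 replicate 2 and -0.08 with normexp.

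Coenzyme Q carries electrons from complexes I and II to complex III. Of 12 tested genes of its synthesis, 4 were higher and 2 lower without overlap, against 28% and 25.2% of all tested genes, with a median of 0.03. The median gap between the siNEG arrays was wider, 0.15, with replicate 2 above replicate 1 for 10 of the 12. By limma 0 were past the thresholds and 1, Coq8b, was under an unadjusted p of 0.05, against 7.41% of all tested genes under it and higher and 8.71% under it and lower. Coq8b, an atypical kinase of the synthesis complex, had intensities of 3318 and 3547 in siNEG and of 4139 and 4093 in siGPR17 OPCs, a log2 difference of 0.26 (SE 0.091, adjusted p = 0.286 from limma) without overlap. Coq10b, a coenzyme Q binding protein, had 2485 and 2168 in siNEG and 2836 and 2788 in siGPR17 OPCs, a log2 difference of 0.28 (SE 0.11) without overlap, which was 0.18 without siNEG replicate 2.

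For ATP export and uncoupling, 3 of 9 tested genes were higher and 2 lower without overlap, against 28% and 25.2% of all tested genes, with a median of 0.01. All 9 were higher on siNEG replicate 2 than on siNEG replicate 1, by a median of 0.15. Here limma put 0 past the thresholds and 0 under an unadjusted p of 0.05, against 7.41% of all tested genes under it and higher and 8.71% under it and lower. Ucp2 was at background on each array. The 2 lower ones were also the widest differences of the list. Ckmt1, the mitochondrial creatine kinase that passes ATP energy to creatine, had intensities of 402 and 499 in siNEG and of 351 and 367 in siGPR17 OPCs, a log2 difference of -0.32 (SE 0.14, adjusted p = 0.346 from limma). Slc25a27, a carrier of the uncoupling protein family, had 979 and 1071 in siNEG and 857 and 863 in siGPR17 OPCs, a log2 difference of -0.25 (SE 0.095). Both genes had no overlap between the groups, but Ckmt1 was at -0.16 without siNEG replicate 2.

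The mitochondrial ribosome makes the subunits of the chain that mitochondrial DNA encodes. The 68 genes with a matched probe and a symbol that starts with Mrpl or Mrps were all tested, 41 were above 0 (52% of all tested genes), 24 were higher and 6 lower without overlap (28% and 25.2%), and the median was 0.05. In limma 0 passed, while 3 had an unadjusted p under 0.05 and were higher and 1 had one and was lower, against 7.41% and 8.71% of all tested genes. Mrps15, of the small ribosomal subunit, had intensities of 280 and 196 in siNEG and of 392 and 403 in siGPR17 OPCs, a log2 difference of 0.76 (SE 0.20), which was 0.51 without siNEG replicate 2. It passed both thresholds with normexp (0.64, adjusted p = 0.0657 from limma) and with trend and robust options (adjusted p = 0.0657 from limma), and over all alternatives its adjusted p lay between 0.0657 and 0.676. Mrpl32, of the large subunit, had 7094 and 7274.5 in siNEG and 5841 and 5422 in siGPR17 OPCs, a log2 difference of -0.35 (SE 0.093). Neither overlapped between the groups, and they lay on opposite sides of 0. As for the respiratory chain genes, siNEG replicate 2 was above siNEG replicate 1 for most under the percentile scaling, 55 of the 68. The median gap was 0.14, wider than the median of 0.05 between the groups. Relative to each gene's mean over the arrays, the medians were -0.07 and 0.06 on the siNEG arrays and 0.03 and -0.0002 on the siGPR17 arrays. SiNEG replicate 2 thus lay above both siGPR17 arrays.

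The last list held the isoforms that are exchanged at low oxygen, with Lonp1, the matrix protease that degrades Cox4i1. Of its 4 genes 2 were higher and 0 lower without overlap, against 28% and 25.2% of all tested genes, with a median of 0.27. By limma 0 were past the thresholds and 1 was under an unadjusted p of 0.05, against 7.41% of all tested genes under it and higher and 8.71% under it and lower. That gene was Lonp1, with intensities of 4910 and 4841 in siNEG and of 6022 and 6193 in siGPR17 OPCs. SiGPR17 and siNEG values were far apart relative to their replicates, with a log2 fold change of 0.32 (SE 0.086, adjusted p = 0.237 from limma). The difference held its sign under each scaling and with each array left out. Cox4i2 and Ndufa4l2 had given 0.22 and 0.38 at low signals, and Cox4i1 -0.04. Ndufa4l2, counted in the median of 0.27, was well above background on both siGPR17 arrays but on only 1 siNEG array. With normexp Cox4i2 was at 0.18 and Ndufa4l2 at 0.09, while the median of 0.27 belongs to the percentile scaling.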

How the data were processed

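The authors deposited spot intensities that Agilent Feature Extraction 10.7.3.1 had background-corrected (submitters' processing notes), not normalized between arrays. For normexp (offset 50) the deposited median intensities of spots and background served, as the deposited values held no mean spot intensities. Control spots and spots marked as outliers were left out, and replicate spots of a probe averaged. Log2 values were taken relative to each array's 75th percentile over non-control probes (564 to 623), and printed intensities are these values times a common factor. Of 45565 measured probes, 28016 were well above background on at least 2 arrays and were tested, two-sided, with limma 3.58.1 in R 4.3.3 (lmFit, eBayes, Benjamini-Hochberg); the number of arrays limits the precision. From 26997 to 28244 probes per array were well above background, and 0 non-control spots were saturated. The thresholds, a fold of 1.5 and an adjusted p of 0.07, are the study's, which names no test for arrays. The t-test of its general statistics was run as the methods' t-test. Symbols for 21093 probes and promoters came from RefSeq tables of GRCr8, matched by transcript. The code was tested on simulated data. Python 3.11.15, pandas 2.3.3, numpy 2.4.6 and matplotlib 3.10.9 made tables and plots.

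Members and lists were chosen with earlier results of these data known. Named were Gpr17, in each complex up to 3 genes with the largest rise and up to 3 with the largest fall among those without overlap, the isoform families, and in other lists genes without overlap among the 2 largest changes. Lists of up to 5 genes could be named whole. Alternatives were normexp, quantile, median and spike-in scaling, no filter or a filter on all 4 arrays, the methods' t-test, limma's trend and robust options, the mean of a gene's probes, the replicate block, and each array left out.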

Additional observations from a re-analysis of the deposited data

How the results depend on the processing

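The number of probes past both thresholds was 1. It was 239 with normexp, 420 with trend and robust options, and 0 with spike-in scaling, without a filter, with the filter on all 4 arrays, with the methods' t-test, with the replicate block and with any array left out. Respiratory chain genes past them numbered 0 under each alternative. Gpr17 passed with normexp (-0.66, adjusted p = 0.0235 from limma) and with trend and robust options (-0.78, adjusted p = 0.0147 from limma), and over all alternatives its adjusted p lay between 0.0147 and 0.663.

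Quantile normalization gave 14 respiratory chain genes lower without overlap in place of 2, and medians of 0.01, 0.0557, 0.05, 0.06 and 0.004 for complexes I to V. Spike-in scaling, which moves every gene by the same amount, gave 76 higher and 1 lower, against 51.2% and 13.3% of all tested genes, and medians of 0.20 for all respiratory chain genes and of 0.19, 0.22, 0.24, 0.20 and 0.18 for complexes I to V. With an array left out, 36 to 76 genes were higher and 2 to 38 lower without overlap, against 36.2% to 47.8% and 32.3% to 45.8% of all tested genes, and the median lay between -0.00831 and 0.13. The medians of complexes I to V then lay between -0.0121 and 0.14, 0.08 and 0.10, -0.0100 and 0.18, 0.01 and 0.13, and -0.05 and 0.14. The shift common to all genes gives the values under spike-in scaling, and for the others the cause was not tested.

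Respiratory chain genes below 0 numbered 20, and 4 under spike-in scaling. The alternatives are not given for Ppargc1a, which is left out below. Among the genes named in the report, leaving aside markers given without a log2 fold change, signs turned under spike-in scaling for Cox4i1 (0.0951), Cox7a2 (0.0959), Cox7a2l (0.12), Ndufa4 (0.0725), Uqcrq (0.00275), Ndufaf3 (0.0385) and Cox5a (0.127), with normexp for Cox8b (0.0264) and Cox5a (0.0521), with quantile normalization for Atp5mc2 (-0.0540) and Uqcr10 (-0.0553), and with the mean of tested probes for Cox5a (0.0665), Ndufab1 (-0.0776), Uqcr10 (-0.0510) and Nrf1 (0.106). With an array left out, they turned for Cox4i1 (-0.17 to 0.0971), Cox6b1 (-0.0610 to 0.19), Cox6b2 (-0.0364 to 0.19), Cox7a2 (-0.11 to 0.0348), Cox7a2l (-0.13 to 0.12), Ndufa4 (-0.13 to 0.00829), Atp5mc1 (-0.0617 to 0.21), Atp5mc2 (-0.10 to 0.11), Uqcrq (-0.267 to 0.00999), Cox5a (-0.130 to 0.122), Uqcr10 (-0.0802 to 0.147) and Gabpa (-0.0139 to 0.0687). The turns under spike-in scaling follow from its common shift, and for the others the cause was not tested.

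The log2 differences within the pairs of replicate arrays had a correlation across probes of -0.065, and samples of the same number share only that number. Where a group keeps 1 array, limma pools the spread and the lone array is assumed to vary like the other group. Ndufa4l2 has no value with the filter on all 4 arrays, and Cox8c, at background on each array, is given no change. Genes near background, such as Cox6a2, Cox8b and Ndufa4l2, depend on the background correction, and with 2 arrays a group the median SE of a respiratory chain gene was 0.10.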
